A study of Mus musculus with 8 samples.

Results

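CD11b+ Gr-1hi and CD11b+ Gr-1lo cells of bone marrow (BM) were compared across all genes, to describe which functions part granulocytic from monocytic cells in this tissue. The comparison used 4 of the 8 libraries of the series, each placed in its group by its label. Libraries 9 and 10 held BM Gr-1hi cells, labelled G-MDSC, and libraries 11 and 12 held BM Gr-1lo cells, labelled M-MDSC, where MDSC stands for myeloid-derived suppressor cell. All 4 came from sanroque mice, homozygous for the Roquin san allele (Roquin san/san) on a C57BL/6 background, 20 weeks old and labelled female. Sanroque mice develop a lupus-like disease, and both groups carried the san allele, since no wild-type marrow was analysed here. The other 4 libraries held the same populations from spleen (SP). Each population was defined by a cell sort alone, so that cells of several maturation stages can share a library.

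Neutrophils and monocytes descend from shared progenitors in the marrow. A neutrophil precursor fills its primary granules first, with myeloperoxidase and serine proteases, then its secondary granules, with lactoferrin and antimicrobial peptides, and last its tertiary granules, with gelatinase, and it stops dividing on the way. Monocytes are built under transcription factors such as IRF8 and KLF4, leave the marrow by the chemokine receptor CCR2, and can become macrophages or dendritic cells in tissues. Antibodies to Gr-1 bind Ly6G, which marks neutrophils, and also Ly6C, which monocytes carry as well.

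The marker genes followed the sort. Ly6g, which encodes the neutrophil antigen seen by Gr-1 antibodies, stood at 685 and 801 CPM (counts normalized to library size) in the Gr-1hi libraries and at 3.07 and 5.35 CPM in the Gr-1lo libraries, a log2 fold change of 7.46 (SE 0.38). Csf1r, the receptor of the monocyte growth factor M-CSF, stood at 175 and 133 CPM in Gr-1hi and at 471 and 436 CPM in Gr-1lo, a log2 fold change of -1.56 (SE 0.19). The groups did not overlap for either gene. All 10 granulocyte markers were higher in Gr-1hi cells and all 10 monocyte markers higher in Gr-1lo cells, by at least 2-fold at an adjusted p of at most 0.05. Ly6c2, which encodes the Ly6C that Gr-1 antibodies also bind, was near in level, at 1133 and 1516 CPM against 1645 and 2193 CPM, and missed that rule (log2 fold change -0.54, SE 0.22, adjusted p = 0.0542, edgeR quasi-likelihood test). Itgam, the gene of CD11b, was higher in Gr-1hi cells, at 4885 and 4904 CPM against 877 and 734 CPM.

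Fn1 and other monocyte genes exposed a difference between the 2 Gr-1hi libraries. Fn1, the gene of fibronectin, stood at 1.12 CPM in library 9 and 31.2 CPM in library 10, against 3656 and 2474 CPM in the Gr-1lo libraries. Of the 221 abundant genes described next as higher in Gr-1lo cells, 50 were more than 2-fold higher in library 10 than in library 9 and none was as much lower, with a median log2 ratio of 0.53, while the 329 genes higher in Gr-1hi cells had a median of -0.06. The part of other cells in library 10 was not tested, and results that turn on it are given for both libraries. In bulk RNA, fewer cells of a type and less RNA per cell cannot be told apart. The summed markers of lymphoid, erythroid, platelet, eosinophil, and basophil and mast cells were low in all 4 libraries, at 0.840 to 69.3 CPM a list, and higher in both Gr-1hi than in both Gr-1lo libraries, as in the plot of marker sums. At the same 2-fold rule, 24.2% of all genes tested were higher in Gr-1hi and 33.1% higher in Gr-1lo cells. Within those lists, 6 of 8 T cell, 7 of 8 B cell, and 3 of 8 NK cell markers tested were higher in Gr-1hi cells. So were 4 of 6 erythroid, 2 of 5 platelet, 6 of 7 eosinophil, and 6 of 6 basophil and mast cell markers. Of the rest, 1 B cell and 1 platelet marker were higher in Gr-1lo cells, and Cma1 was at 0 throughout. A single gene, Gp1bb, held 61.8 and 64.4 CPM of the platelet sums of 69.0 and 69.3 CPM in the Gr-1hi libraries. On the other side, plasma cell markers summed to 101 to 102 CPM in Gr-1hi and 231 to 256 CPM in Gr-1lo cells, with 4 of 7 higher in Gr-1lo cells. Dendritic cell markers ran from 44.1 to 69.9 CPM, with 3 of 10 higher in each group, and stem and early progenitor markers from 78.4 to 99.995 CPM, with 1 of 9 higher in Gr-1hi and 3 in Gr-1lo cells. The 10 tissue macrophage markers summed to 68.1 to 92.3 CPM in Gr-1hi and 157 to 189 CPM in Gr-1lo cells, although 6 of them were higher in Gr-1hi and 3 in Gr-1lo cells. The part of these cells in the results was not tested. Library totals ran from 33453580 to 42126974 counts, and replicate libraries differed by more than sampling noise in both groups.

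**Figure D1:**
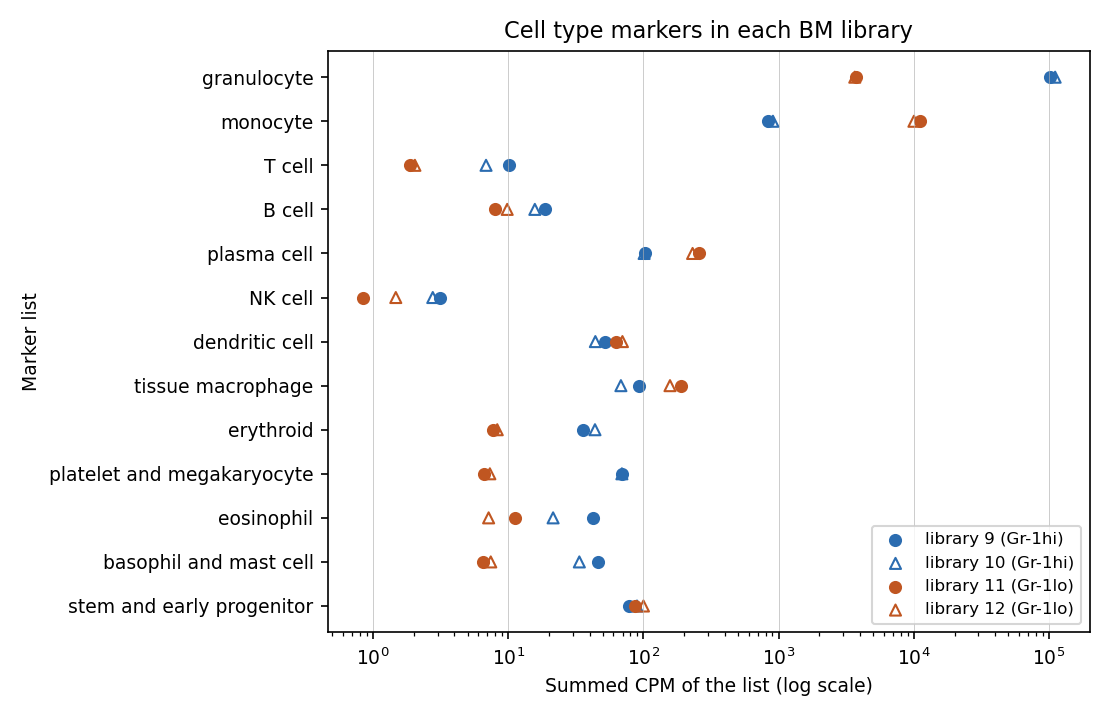
Summed levels of 13 marker lists in the 4 BM libraries. The x axis gives the sum of CPM over the genes of a list on a log scale, and each point is 1 library. Granulocyte markers summed to 101482 and 110848 CPM in Gr-1hi against 3725 and 3655 CPM in Gr-1lo cells, and monocyte markers to 833 and 907 CPM against 11007 and 10009 CPM.

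Of 17650 genes tested, 1158 (6.56%) were higher in Gr-1hi and 1788 (10.1%) higher in Gr-1lo cells, by more than 8-fold at an adjusted p below 0.01 (differentially expressed genes, DEGs). The DEGs higher in Gr-1hi made up 39.3% of all DEGs, and 50.3% in an exact test on quantile-normalized TPM (length-scaled shares of transcripts). Of the 4731 genes that reached 50 CPM in both libraries of the higher group, 329 (6.95%) were DEGs higher in Gr-1hi and 221 (4.67%) DEGs higher in Gr-1lo cells. Among the 4731, 3061 had the higher mean in Gr-1hi and 1670 in Gr-1lo cells, so these percentages do not compare the sides. The 329 genes took 24.9% and 25.6% of all counts of libraries 9 and 10, whereas the 221 took 6.02% and 5.92% of libraries 11 and 12. At the 50 CPM edge, Hcst passed at 50.6 CPM in its lower library and Nt5e missed at 49.99 CPM, and on the Gr-1lo side Cks1b passed at 50.5 CPM and Dusp3 missed at 49.8 CPM. The median log2 fold change of all genes was -0.17 with TMM scaling and -0.03 with DESeq2's size factors (RLE scaling), so small values in either direction carry that shift.

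**Figure D2:**
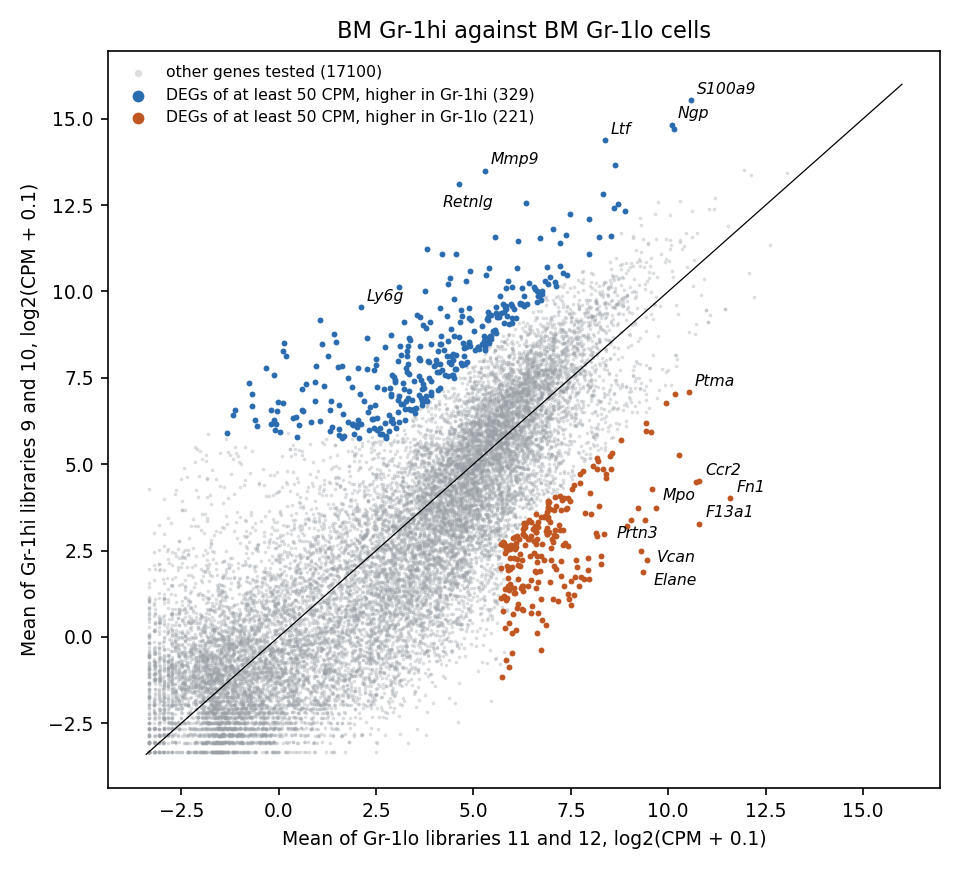
Mean level of each gene tested in BM Gr-1lo libraries (x axis) and BM Gr-1hi libraries (y axis), as log2(CPM + 0.1), with the diagonal marking equal levels. The 329 DEGs of at least 50 CPM higher in Gr-1hi cells lie above the diagonal, with S100a9, Ngp, and Ltf at the top, and the 221 higher in Gr-1lo cells below it, with Fn1, F13a1, and Ccr2 farthest to the right among those labelled.

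The abundant genes with the largest differences in favour of Gr-1hi cells were those of a resistin-like protein, a gelatinase, and stefins. Retnlg, a resistin-like secreted protein of neutrophils, stood at 9223 and 8339 CPM in Gr-1hi and 17.3 and 32.1 CPM in Gr-1lo libraries, a log2 fold change of 8.47 (SE 0.49, adjusted p = 3.43e-06). Mmp9, the gelatinase of tertiary granules, stood at 12053 and 11107 CPM against 24.7 and 53.3 CPM (log2 fold change 8.21, SE 0.42). The genes of this paragraph were picked by their large difference, so the gap between the groups is no separate result. Stfa2l1, of the stefin family of cysteine protease inhibitors, had 319 and 403 CPM against 0.533 and 1.45 CPM (log2 fold change 8.48, SE 0.59). Its neighbour Cstdc4 had 264 and 355 CPM against 0.451 and 1.51 CPM, and because stefin genes are close copies, reads could have been split among them. Gabbr1, a subunit of the GABA-B receptor, had 196 and 132 CPM against 0.328 and 0.642 CPM (log2 fold change 8.38, SE 0.39). Amer2, an APC-binding protein, had a log2 fold change of 8.29 (SE 0.24), with 242 and 198 CPM in Gr-1hi cells. The other genes of this group were Asprv1, a retroviral-like aspartic protease (8.16), Ankrd33b (8.05), Dmwd (8.03), and the orphan receptor Gpr27 (7.95).

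Per length, the most abundant DEGs of Gr-1hi cells were S100a9, S100a8, Ngp, Retnlg, and Camp. S100a9, a subunit of the calcium-binding alarmin calprotectin, stood at 45181 and 50285 CPM against 1492 and 1579 CPM, or 91442 against 2942 RPKM (the CPM per kilobase of gene length), a log2 fold change of 4.96 (SE 0.18, adjusted p = 1.41e-07). Its partner S100a8 stood at 24773 and 28999 CPM against 1091 and 1192 CPM (38741 against 1645 RPKM). Both transcripts were thus present in the Gr-1lo libraries as well, at a level per length above that of Fn1 (262 RPKM in Gr-1lo). Which cells of the Gr-1lo sort held them was not tested. Ngp, a neutrophil granule protein, had 26964 and 31326 CPM against 1130 and 1052 CPM (log2 fold change 4.74, SE 0.29). Camp, the precursor of an antimicrobial peptide, had 4629 and 5654 CPM against 521 and 434 CPM (log2 fold change 3.43, SE 0.29).

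On the Gr-1lo side the largest differences among abundant genes were in matrix and clotting proteins, granule proteases, and enzymes. F13a1, the A subunit of clotting factor XIII, stood at 1.83 and 17.4 CPM in Gr-1hi and 1885 and 1677 CPM in Gr-1lo libraries, a log2 fold change of -7.54 (SE 1.10). Fn1 had a log2 fold change of -7.58 (SE 1.48, adjusted p = 0.00560), and Vcan, a matrix proteoglycan, of -7.28 (SE 1.13), with 0.374 and 8.71 CPM against 820 and 572 CPM. The groups stayed far apart for these 3 genes, but library 10 was above library 9 in each, and their adjusted p (edgeR quasi-likelihood test) rose above 0.01 in some alternatives, up to 0.0326 for Fn1. Without library 10 the log2 fold changes of Fn1, F13a1, and Vcan were -11.33, -9.84, and -10.77, and without library 9 they were -6.57, -6.62, and -6.27. Elane, neutrophil elastase, stood at 4.07 and 3.01 CPM against 683 and 634 CPM (log2 fold change -7.53, SE 0.39, adjusted p = 1.45e-06), so it did not share that split of libraries 9 and 10. Ass1, an enzyme of arginine synthesis, had 0.486 and 0.867 CPM against 85.6 and 127 CPM (log2 fold change -7.30, SE 0.32). The rest of the group were Mcub, a subunit of the mitochondrial calcium uniporter (-7.30), Met, the receptor of hepatocyte growth factor (-7.12), Prtn3, proteinase 3 (-6.84), Pros1, the anticoagulant protein S (-6.79), and Rnd3, a small GTPase (-6.70).

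Per length, the most abundant DEGs of Gr-1lo cells were mt-Nd1, Ptma, Elane, Tmsb10, and Gm42674. mt-Nd1, a complex I subunit encoded in mitochondrial DNA, stood at 99.8 and 118 CPM against 1023 and 946 CPM (log2 fold change -3.18, SE 0.17). Ptma, the chromatin-associated prothymosin alpha, had 107 and 166 CPM against 1378 and 1575 CPM (-3.44), and Tmsb10, an actin-binding thymosin, 49.98 and 71.0 CPM against 665 and 853 CPM (-3.65). Gm42674 overlaps S100a4 and S100a3 on the same strand, so its value of -6.07 is uncertain, as is that of S100a4.

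**Figure D3:**
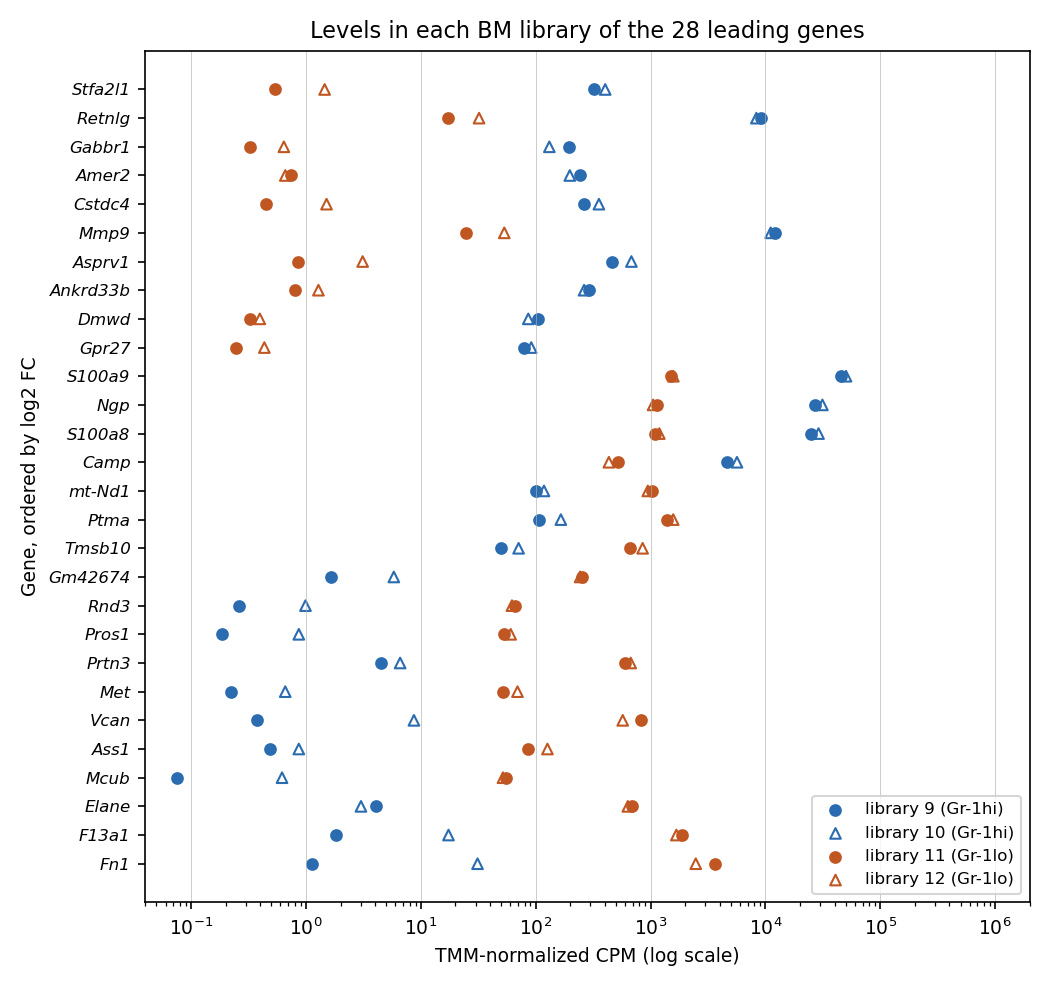
Levels of 28 leading genes in each BM library, in CPM on a log scale, ordered by log2 fold change. Each symbol is 1 library. The 28 were picked among DEGs of more than 8-fold, so the gap between Gr-1hi and Gr-1lo libraries is no separate result. Fn1, F13a1, and Vcan show the widest distance between libraries 9 and 10.

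The starts of 5 of these genes show what lies upstream of transcripts that part so widely. The 250 bases before the RefSeq start (GRCm38.p6) are printed 5′ to 3′ on the strand of the gene, with capitals marking matches, on either strand, to TTNNGNAA (a C/EBP motif), GAGGAAGT (a PU.1 motif), or TGCTGACN (a MAF core). They lie at chr16:48872358-48872607 (Retnlg, plus strand), chr3:90695722-90695971 (S100a9, minus), chr9:110419558-110419807 (Ngp, plus), chr13:37050245-37050494 (F13a1, minus), and chr10:79886062-79886311 (Elane, plus).
Retnlg: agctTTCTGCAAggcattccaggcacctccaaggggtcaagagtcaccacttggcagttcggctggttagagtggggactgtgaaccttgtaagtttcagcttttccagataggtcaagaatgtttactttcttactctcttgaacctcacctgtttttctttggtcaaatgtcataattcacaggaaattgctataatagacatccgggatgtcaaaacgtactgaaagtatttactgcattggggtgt
S100a9: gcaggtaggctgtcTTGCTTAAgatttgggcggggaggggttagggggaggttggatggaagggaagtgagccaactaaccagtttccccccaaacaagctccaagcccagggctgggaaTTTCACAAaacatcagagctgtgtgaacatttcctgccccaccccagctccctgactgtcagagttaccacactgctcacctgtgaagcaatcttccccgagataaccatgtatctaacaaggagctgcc
Ngp: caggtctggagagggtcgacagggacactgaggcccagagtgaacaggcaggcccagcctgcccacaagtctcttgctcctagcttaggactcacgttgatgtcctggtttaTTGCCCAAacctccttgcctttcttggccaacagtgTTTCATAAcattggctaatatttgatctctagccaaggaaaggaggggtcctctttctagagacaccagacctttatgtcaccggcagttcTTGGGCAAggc
F13a1: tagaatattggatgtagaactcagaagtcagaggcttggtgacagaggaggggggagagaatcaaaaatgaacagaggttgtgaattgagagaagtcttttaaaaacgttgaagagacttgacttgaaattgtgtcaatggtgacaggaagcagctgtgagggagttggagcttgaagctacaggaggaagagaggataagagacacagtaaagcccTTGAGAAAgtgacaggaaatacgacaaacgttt
Elane: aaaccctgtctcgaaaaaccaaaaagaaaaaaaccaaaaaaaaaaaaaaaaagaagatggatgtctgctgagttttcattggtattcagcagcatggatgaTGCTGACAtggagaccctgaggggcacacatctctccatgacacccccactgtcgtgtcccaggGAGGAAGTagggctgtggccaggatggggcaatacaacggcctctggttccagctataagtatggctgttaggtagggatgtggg
Retnlg and F13a1 held 1 match to the C/EBP motif each, S100a9 held 2, and Ngp 3, whereas Elane held 1 PU.1 match and 1 MAF core match. No match overlapped another motif's match in these 5 windows. Of the 329 abundant DEGs of Gr-1hi cells, 251 had such a window, and 40.2% of the windows held the C/EBP motif, 4.78% the PU.1 motif, and 3.98% the MAF core. For the 170 windows of Gr-1lo DEGs the shares were 25.3%, 4.71%, and 4.71%, and for all 27025 windows 37.1%, 2.43%, and 3.68%. A match is a run of letters and shows no binding.

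Granule proteins parted by the granule that holds them. Of 9 primary granule genes, 8 were higher in Gr-1lo and 1 higher in Gr-1hi cells at the 2-fold rule, with a median log2 fold change of -5.01, against backgrounds of 33.1% and 24.2% of all genes tested. Mpo, myeloperoxidase, stood at 26.02 and 18.9 CPM in Gr-1hi and 1714 and 1624 CPM in Gr-1lo libraries, and Ctsg, cathepsin G, at 3.40 and 2.56 CPM against 170 and 192 CPM. The exception was Serpinb1a, at 531 and 618 CPM against 171 and 145 CPM (log2 fold change 1.86, SE 0.27). It was listed as an inhibitor of neutrophil serine proteases and is not itself one of the granule enzymes. Of 11 secondary granule genes, 10 were higher in Gr-1hi cells, 9 of them by more than 8-fold (6.56% of all genes tested), with a median of 4.74. Ltf, lactoferrin, led them at 19965 and 22640 CPM against 295 and 365 CPM (log2 fold change 6.01, SE 0.30), followed by Olfm4, olfactomedin 4 (5.71), and Itgb2l, an integrin beta subunit (5.29). Chil3, a chitinase-like protein, did not pass, with 3689 and 3927 CPM against 3308 and 2677 CPM (adjusted p = 0.480).

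All 18 genes of tertiary granules and mature neutrophils were higher in Gr-1hi cells, 16 by more than 8-fold, with a median log2 fold change of 5.84. Of all genes tested, 24.2% and 6.56% were higher in Gr-1hi cells at the same rules. Cxcr2, the receptor that draws neutrophils to CXC chemokines, stood at 2525 and 2300 CPM against 12.2 and 15.6 CPM. Cxcr1, its close relative, had 578 and 418 counts in Gr-1hi and 0 in both Gr-1lo libraries, at least 281-fold higher against a floor of 3 counts per library. Il1r2, the decoy receptor of interleukin 1, had 385 and 324 CPM against 25.9 and 9.50 CPM, and its adjusted p of 0.00155 went up to 0.0159 with no filter on low counts.

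Small calcium-binding and protease-inhibiting proteins went both ways. Of 15 S100, annexin, and stefin genes tested, 11 were higher in Gr-1hi and 3 in Gr-1lo cells, with a median of 3.10, against 24.2% and 33.1% of all genes. S100a10, the partner of annexin A2, stood at 1.23 and 2.35 CPM against 176 and 185 CPM (log2 fold change -6.66, SE 0.25), and S100a4, which binds myosin, at 0.822 and 5.33 CPM against 256 and 248 CPM (-6.38, SE 0.70). They thus lay opposite to S100a8, S100a9, and S100a6, the last at 1487 and 1541 CPM against 212 and 230 CPM (2.77). Stfa2 had 28.7 and 57.2 CPM against 0.0615 and 0.208 CPM, with the same limit on close copies.

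Transcription factors of the lineages parted along with their cells. Of 10 granulocyte factors, 6 were higher in Gr-1hi and 1 in Gr-1lo cells (median 1.34), against 24.2% and 33.1% of all genes. Dach1, a nuclear cofactor, had the largest value, with 122 and 129 CPM against 8.58 and 8.35 CPM (log2 fold change 3.89, SE 0.23), and Cebpe, which drives secondary granule genes, stood at 144 and 154 CPM against 33.6 and 32.2 CPM (2.18, SE 0.25). Cebpa, needed for the earliest granulocyte precursors, was higher in Gr-1lo cells (-1.82, SE 0.22), at 19.0 and 13.3 CPM against 56.1 and 57.9 CPM. Gfi1 (adjusted p = 0.160) and Cebpb (adjusted p = 0.0963) did not pass. Spi1, the gene of PU.1, which both lineages use, was the most abundant at 755 and 739 CPM against 253 and 269 CPM. Of 17 factors of monocytes and dendritic cells, 11 were higher in Gr-1lo cells and 1 in Gr-1hi cells (median -2.01). Klf4 stood at 1.35 and 3.14 CPM against 158 and 186 CPM (-6.28, SE 0.32), Irf8 at 5.38 and 10.5 CPM against 228 and 337 CPM (-5.16, SE 0.35), and Tfec, a factor of the MiT family, at 0.374 and 0.702 CPM against 44.1 and 49.99 CPM (-6.46, SE 0.23). The gene on the other side was Egr2, an immediate early gene, with a log2 fold change of 4.06 (SE 0.82) at a low level of 4.22 and 3.43 CPM in Gr-1hi cells. Its relative Egr1 had 163 and 97.5 CPM against 11.9 and 4.40 CPM and an adjusted p of 0.0501 in the edgeR quasi-likelihood test.

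Receptors for growth factors and chemoattractants split within each class, where 24.2% of all genes tested were higher in Gr-1hi and 33.1% higher in Gr-1lo cells. Of 24 cytokine receptors, 11 were higher in Gr-1hi and 4 in Gr-1lo cells (median 0.85). Csf3r, the G-CSF receptor, stood at 4973 and 3830 CPM against 264 and 238 CPM (log2 fold change 4.13, SE 0.19), and Il18rap, a chain of the interleukin 18 receptor, at 933 and 919 CPM against 49.9 and 52.2 CPM (4.18, SE 0.09). Il6st, the gp130 chain shared by receptors of the interleukin 6 family, was on the Gr-1lo side at 1.64 and 4.83 CPM against 204 and 188 CPM (-5.94, SE 0.48). Of 18 chemoattractant receptors, 12 were higher in Gr-1hi and 5 in Gr-1lo cells (median 2.27). Ccr2 stood at 6.73 and 38.6 CPM against 1826 and 1697 CPM (-6.29, SE 0.85), with library 10 again above library 9. C5ar1, the receptor of complement fragment C5a, lay opposite, at 755 and 718 CPM against 20.0 and 14.8 CPM (5.403, SE 0.16).

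Among 22 adhesion molecules, 11 were higher in Gr-1hi and 6 in Gr-1lo cells (median 0.91), against 24.2% and 33.1% of all genes. The share on the Gr-1lo side was below that of all genes here, and also for the pattern and Fc receptors that follow. Itgax, the gene of CD11c, a marker often used for dendritic cells, was higher in Gr-1hi cells, at 34.1 and 20.9 CPM against 1.13 and 0.605 CPM (log2 fold change 5.00, SE 0.37). Itga5, the fibronectin receptor chain, was the largest on the Gr-1lo side, at 6.13 and 4.13 CPM against 78.1 and 69.2 CPM (-3.84, SE 0.18), and Icam1, a ligand of leukocyte integrins, followed (-2.98, SE 0.22). Of 24 pattern receptors and their adaptors, 9 were higher in Gr-1hi and 4 in Gr-1lo cells (median 0.81). Tlr5, the flagellin receptor, stood at 62.8 and 48.4 CPM against 6.00 and 4.40 CPM (3.42, SE 0.22). Cd180 and Ly86, which form an LPS-regulating pair on the cell surface, were at -4.63 (SE 0.31) and -5.53 (SE 0.45). Of 8 Fc receptor genes, 4 were higher in Gr-1hi and 2 in Gr-1lo cells (median 1.32). Fcgr1, the high-affinity IgG receptor, had 2.32 and 6.56 CPM against 136 and 168 CPM (-5.11, SE 0.47), while Fcgr4 had 204 and 247 CPM against 37.6 and 40.5 CPM (2.53, SE 0.15).

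Among genes of antigen presentation and of lysosomes, more members passed the 2-fold rule on the Gr-1lo than on the Gr-1hi side. At the same rule 33.1% of all genes tested were higher in Gr-1lo and 24.2% higher in Gr-1hi cells. Of 13 genes of MHC class II presentation, 9 were higher in Gr-1lo and 1 in Gr-1hi cells (median -2.06). Ifi30, a lysosomal thiol reductase, stood at 7.51 and 13.3 CPM against 502 and 549 CPM (log2 fold change -5.66, SE 0.29), and H2-DMa, a peptide exchange chain, at 5.35 and 10.2 CPM against 89.7 and 145 CPM (-3.92, SE 0.37). The invariant chain gene Cd74 had 71.1 and 113 CPM against 345 and 731 CPM, so that library 12 lay well above library 11, and the median of the list ran from -2.55 without library 11 to -1.40 without library 12. Cd80, a costimulatory ligand, was the member higher in Gr-1hi cells (1.88, SE 0.21), and Cd86 did not pass. Of 24 lysosomal genes, 12 were higher in Gr-1lo, 2 were higher in Gr-1hi cells, and 10 did not pass (median -1.12). Ctss, cathepsin S, stood at 80.8 and 162 CPM against 791 and 878 CPM (-2.78, SE 0.33), and Psap, prosaposin, the most abundant, at 1510 and 1459 CPM against 4142 and 4403 CPM (-1.53, SE 0.10). Ctsd, cathepsin D (1.92), and Cd63, a tetraspanin of granule membranes (1.93), were on the Gr-1hi side.

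Effector enzymes of neutrophils were also mostly higher in Gr-1hi cells. All 7 NADPH oxidase genes tested, which make the superoxide of phagocytes, were higher in Gr-1hi cells (median 1.86), against 24.2% of all genes. Ncf1, the p47phox subunit, led them with 3324 and 3325 CPM against 422 and 470 CPM (log2 fold change 2.90, SE 0.20). Of 11 genes of leukotriene and prostaglandin synthesis, 9 were higher in Gr-1hi and 2 did not pass (median 2.07). Alox5, 5-lipoxygenase, stood at 899 and 868 CPM against 21.8 and 23.1 CPM (5.30, SE 0.15). Ptgs2, the inducible cyclooxygenase, had 79.4 and 86.4 CPM against 5.88 and 4.97 CPM, with an adjusted p of 0.0189 (edgeR). Its SE of 1.06 rests on the spread in all 8 libraries, SP included, and not on the BM libraries alone. The call for Ptgs2 did not hold when library 11 or library 12 was left out.

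Interferon-stimulated genes did not go one way. Of 26, 16 were higher in Gr-1hi and 4 in Gr-1lo cells (median 1.28), against 24.2% and 33.1% of all genes. Rsad2, the antiviral enzyme viperin, stood at 185 and 239 CPM against 4.77 and 5.97 CPM (log2 fold change 5.30, SE 0.25), and the membrane proteins Ifitm1 (4.59, SE 0.52) and Ifitm6 (4.26, SE 0.18) followed. Mx1, an antiviral GTPase, had 0.561 and 1.53 CPM against 64.8 and 72.5 CPM (-6.06, SE 0.29), and Mx2 0.0748 and 0.372 CPM against 7.72 and 5.12 CPM (-4.87, SE 0.45). In library 9 Mx2 lay below the floor of 0.112 CPM, so its fold is uncertain. These 5 genes were picked by their change or level within the list, so the gap between the groups is no separate result.

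Complement genes and clotting and matrix genes held large differences in both directions. Of 17 complement genes, 7 were higher in Gr-1hi and 5 in Gr-1lo cells (median 0.16), the latter a smaller share than the 33.1% of all genes and the former a larger one than 24.2%. Cd55, a membrane protein that protects cells from complement, stood at 129 and 132 CPM against 0.430 and 0.623 CPM (log2 fold change 7.93, SE 0.26), while Cfb, factor B of the alternative pathway, stood at 0.449 and 2.68 CPM against 43.2 and 73.3 CPM (-5.25, SE 0.76). C1qa, C1qb, and C1qc, which are also markers of tissue macrophages, were all higher in Gr-1hi cells, at 7.35 to 12.6 CPM against 0.697 to 3.31 CPM. Of 22 clotting and matrix genes, 9 were higher in Gr-1lo cells, 8 of them by more than 8-fold, and 7 in Gr-1hi cells, 4 by more than 8-fold (median -0.17). Of all genes tested, 33.1% were higher in Gr-1lo and 24.2% higher in Gr-1hi cells at 2-fold, and 10.1% and 6.56% at 8-fold. The Gr-1hi side held Adam8, a membrane metalloprotease, at 2208 and 2119 CPM against 27.3 and 19.5 CPM (6.53, SE 0.31), and Timp2, a metalloprotease inhibitor (5.68, SE 0.16). The Gr-1lo side held, beside Fn1, F13a1, and Vcan, Lgals1, galectin 1, at 3.33 and 2.81 CPM against 225 and 229 CPM (-6.21, SE 0.14).

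**Figure D4:**
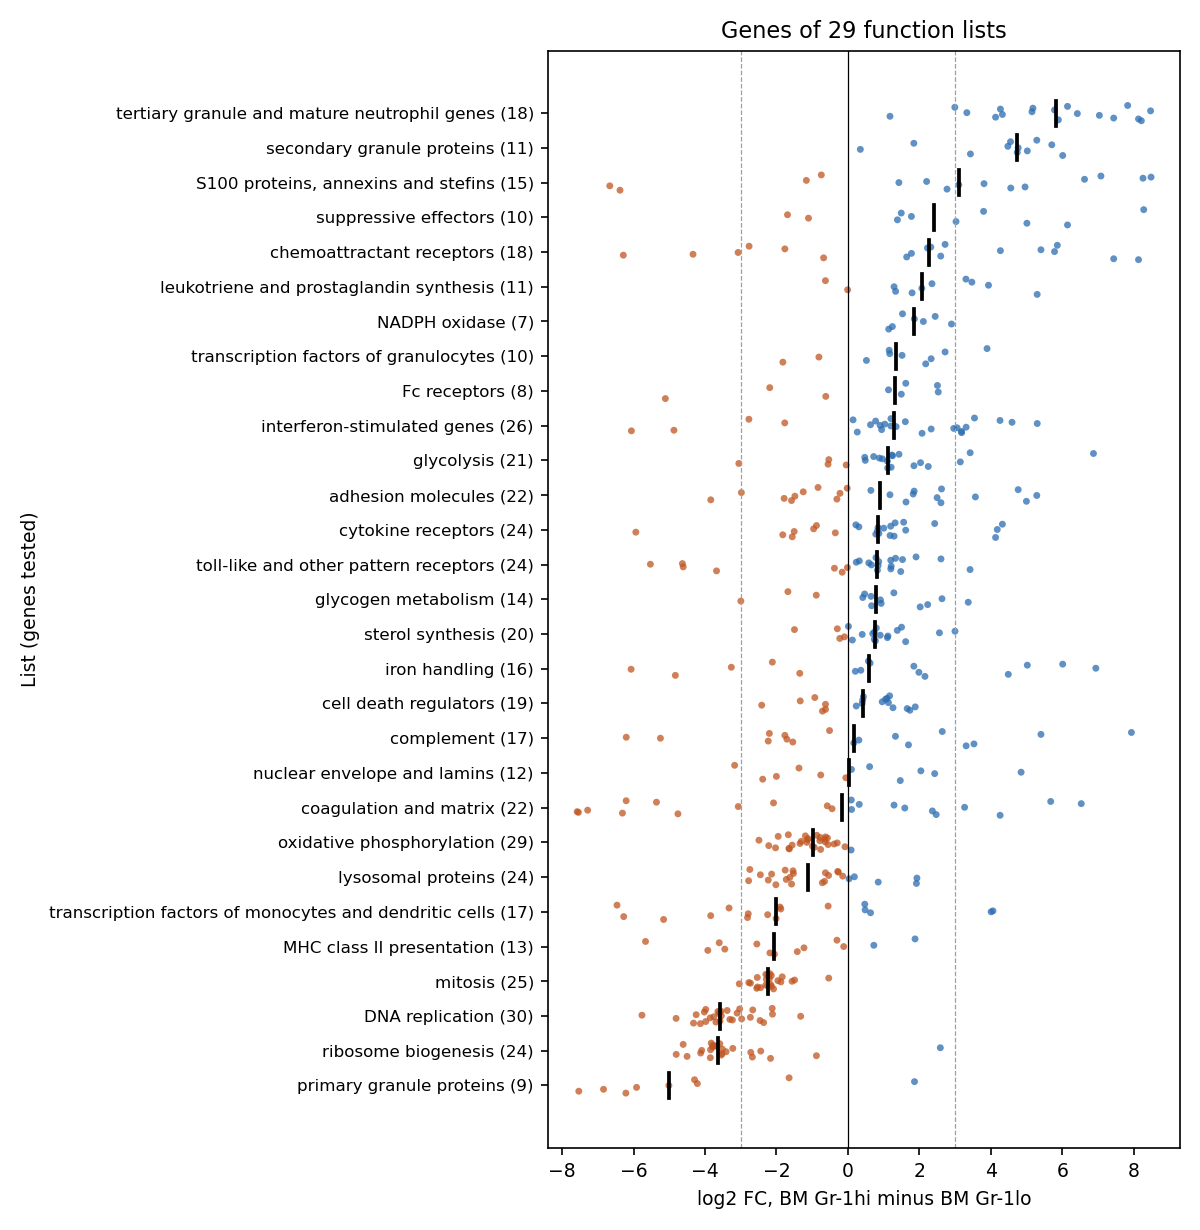
Log2 fold changes (x axis, BM Gr-1hi minus BM Gr-1lo) of the genes tested in 29 function lists, with 1 point for each gene, a bar for each list's median, and dashed lines at 8-fold. Cxcr1 and Stbd1, at 0 counts in a group, are drawn at their lower bounds. Tertiary granule genes lie highest, with a median of 5.84, and primary granule genes lowest, with a median of -5.01.

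Metabolic genes were counted by pathway, beside the 24.2% of all genes higher in Gr-1hi and 33.1% higher in Gr-1lo cells. Of 21 glycolysis genes, 12 were higher in Gr-1hi cells and 1 in Gr-1lo cells (median 1.11). Slc2a3, a glucose transporter, stood at 2128 and 2175 CPM against 16.2 and 20.5 CPM (log2 fold change 6.87, SE 0.16), and Slc16a3, a lactate exporter, at 644 and 607 CPM against 58.1 and 58.6 CPM (3.42, SE 0.12). Pfkm, the muscle form of phosphofructokinase, was the gene on the other side (-3.05, SE 0.29). Of 14 glycogen genes, 5 were higher in Gr-1hi and 2 in Gr-1lo cells (median 0.79), and the 2 phosphorylases Pygl and Pygb lay on opposite sides, at 3.37 (SE 0.10) and -2.996 (SE 0.11). Stbd1, a glycogen-binding protein, had 0 counts in both Gr-1hi and 35 and 21 counts in Gr-1lo libraries, at least 3.20-fold lower in Gr-1hi cells. Of 29 genes of oxidative phosphorylation, 14 were higher in Gr-1lo cells and the other 15 did not pass (median -0.99). Cycs, cytochrome c, stood at 21.7 and 23.1 CPM against 118 and 133 CPM (-2.49, SE 0.12). Of 20 sterol synthesis genes, 7 were higher in Gr-1hi and 1 in Gr-1lo cells (median 0.76), the latter being Dhcr7, which makes cholesterol in the last step of the pathway (-1.50, SE 0.15).

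Genes of cell division were higher in Gr-1lo cells. All 30 genes of DNA replication were higher in Gr-1lo cells, 22 by more than 8-fold, with a median of -3.57, against the 33.1% and 10.1% of all genes at the same rules. Pcna, the polymerase clamp, stood at 18.8 and 20.2 CPM against 183 and 184 CPM (log2 fold change -3.23, SE 0.11), and Orc1, of the origin recognition complex, at 0.112 and 0.165 CPM against 6.51 and 8.73 CPM (-5.76, SE 0.38). Of 25 mitosis genes, 24 were higher in Gr-1lo cells, 1 of them by more than 8-fold (median -2.23). Mki67, the proliferation antigen Ki-67, stood at 174 and 260 CPM against 886 and 953 CPM (-2.08, SE 0.19), and Kif23, a kinesin of cell division, did not reach 2-fold. Mki67 was thus well above the counting floor in Gr-1hi cells, and higher in library 10 than in library 9.

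Ribosome biogenesis was likewise higher in Gr-1lo cells. Of 24 genes, 22 were higher in Gr-1lo cells, 18 by more than 8-fold (median -3.63), against 33.1% and 10.1% of all genes. Npm1, nucleophosmin, stood at 16.5 and 19.0 CPM against 239 and 273 CPM (log2 fold change -3.85, SE 0.12), and Utp20, of the small subunit processome, at 1.16 and 1.20 CPM against 28.03 and 29.7 CPM (-4.61, SE 0.15). Myc, which drives many of these genes, had 1.38 and 1.11 CPM against 17.5 and 18.1 CPM (-3.83, SE 0.20). Polr1a, the largest subunit of RNA polymerase I, lay opposite at 203 and 160 CPM against 30.5 and 30.0 CPM (2.59, SE 0.16), although Polr1b, another subunit of the enzyme, was at -3.79 (SE 0.17).

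Nuclear envelope and iron genes were mixed. Of 12 envelope genes, 4 were higher in each group (median 0.02), which on the Gr-1lo side is the share of all genes (33.1%) and on the Gr-1hi side near it (24.2%). Syne1, which ties the nucleus to the cytoskeleton, stood at 3103 and 2905 CPM against 109 and 99.7 CPM (log2 fold change 4.85, SE 0.25), and Lbr, the lamin B receptor needed for the lobed neutrophil nucleus, at 931 and 988 CPM against 339 and 356 CPM (1.47, SE 0.08). Banf1, a DNA-bridging protein of the envelope, was at -3.17 (SE 0.21). Of 16 iron genes, 7 were higher in Gr-1hi and 5 in Gr-1lo cells (median 0.60), again near those shares on the Gr-1lo side, and the 2 metalloreductases Steap4 and Steap3 went opposite ways, at 6.94 (SE 0.56) and -6.07 (SE 0.33).

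Genes linked to suppression by MDSCs were mostly higher in Gr-1hi cells or not detected. Of 10 tested, 7 were higher in Gr-1hi and 2 in Gr-1lo cells (median 2.40), against 24.2% and 33.1% of all genes. Leaving out any 1 library lowered that median, to 1.75 for library 7, 1.76 for library 8, 1.77 for library 9, and at most 2.16 for the others. The median was 1.39 with no filter on low counts and 3.09 in a fit of the 4 BM libraries. The filter was rerun in each fit, so the members behind these medians can differ, and that part was not tested. Nt5e, the CD73 enzyme that makes adenosine, stood at 67.8 and 49.99 CPM against 0.184 and 0.189 CPM (log2 fold change 8.28, SE 0.41), and Arg2, the mitochondrial arginase, at 161 and 143 CPM against 2.60 and 1.70 CPM (6.15, SE 0.30). Arg1, the cytosolic arginase, had 0 or 1 count in each of the 4 libraries, below the floor of 3 counts, and Il10 had no more. Nos2, inducible nitric oxide synthase, had 8.22 and 7.88 CPM against 0.471 and 0.0378 CPM (5.01, SE 0.93), and Cd274, the gene of PD-L1, 70.2 and 156 CPM against 8.58 and 19.1 CPM (3.03, SE 0.60). In library 12 Nos2 lay below the floor of 0.0567 CPM, so its fold is uncertain. Tgfb1 was on the Gr-1lo side (-1.10, SE 0.11), but at -0.95 with RLE scaling it no longer reached 2-fold. Of 19 regulators of cell death, 8 were higher in Gr-1hi and 2 in Gr-1lo cells (median 0.43). Mcl1, a survival protein of neutrophils, stood at 1728 and 1989 CPM against 548 and 628 CPM (1.66, SE 0.11), and Bax, a death effector, at 8.79 and 7.84 CPM against 41.3 and 47.3 CPM (-2.41, SE 0.13).

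The difference between Gr-1hi and Gr-1lo cells was set beside that in SP, where each group also had 2 libraries. An interaction term found 353 genes (2.0%) with a more positive and 1366 (7.74%) with a more negative difference in BM, by at least 2-fold at an adjusted p of at most 0.05. Ribosome biogenesis held the largest share of its genes, 20 of 24, all more negative in BM, with a median of -3.63 in BM and -1.65 in SP. Myc, at -3.83 in BM and -0.27 in SP, had an interaction of -3.55 (SE 0.26, adjusted p = 0.00153, edgeR quasi-likelihood test), and Irf8 one of -3.02 (SE 0.43, adjusted p = 0.00629). Of secondary granule genes, 8 of 11 were more positive in BM, with medians of 4.74 and 2.85, and Ltf had an interaction of 2.71 (SE 0.34, adjusted p = 0.00377). In contrast, mitosis had medians of -2.23 in BM and -2.26 in SP. Retnlg, at 8.47 and 8.28, and Elane, at -7.53 and -8.31, did not pass the interaction rule.

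The SP libraries limit that comparison. Xist, which female cells express, had 0 to 5 counts in the BM libraries, but 12032 and 9898 counts in SP libraries 5 and 7, and Ddx3y, a Y-linked gene, had 1725 to 2783 counts in the BM libraries and 0 in SP library 5. All 4 BM libraries were alike in both genes and went against the female label. In SP, Gr-1hi library 5 differed from library 6, and library 7 had both transcripts, so differences between mice cannot be told apart from differences between tissues. The number of genes with an interaction ran from 915 without library 8 to 2488 without library 6, against 1719 with all.

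**Figure D5:**
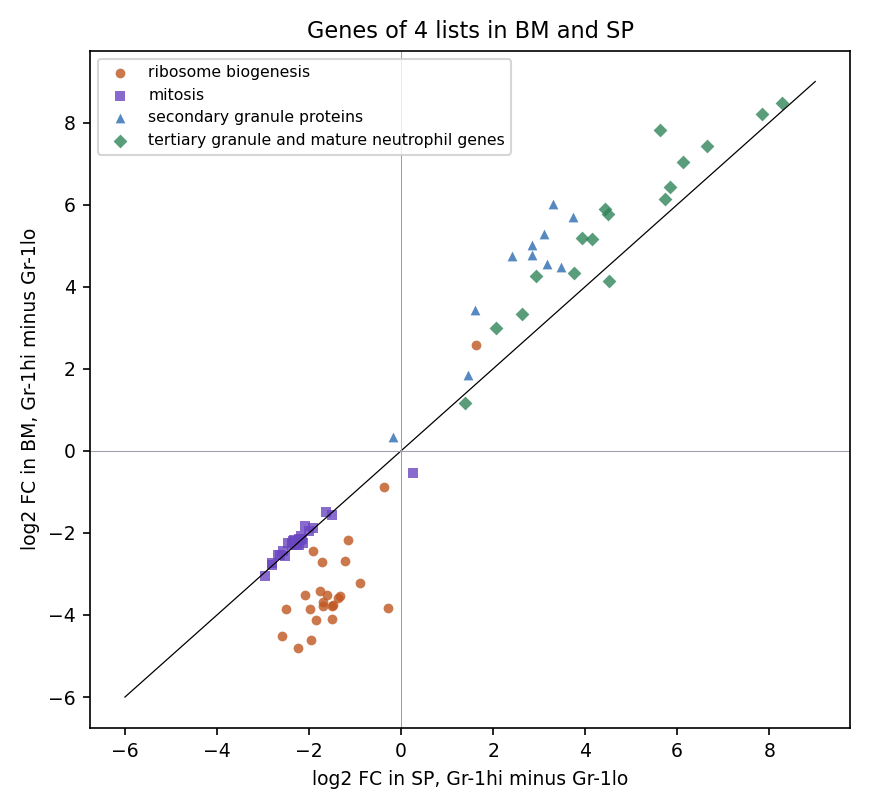
Log2 fold changes of Gr-1hi minus Gr-1lo in SP (x axis) and BM (y axis) for genes of the ribosome biogenesis, mitosis, secondary granule, and tertiary granule and mature neutrophil lists, with 1 point for each gene and the diagonal marking equal values. Cxcr1, at 0 counts in BM Gr-1lo cells, is left out. Most ribosome biogenesis genes lie below the diagonal, with medians of -3.63 in BM and -1.65 in SP, mitosis genes lie near it, with medians of -2.23 and -2.26, and secondary granule genes lie above it.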

How the data were processed

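Poly(A)-selected RNA of sorted CD11b+ cells was sequenced as stranded, paired-end libraries, with 2 libraries per group described in the study's methods as independent biological replicates. The labels do not tie libraries to mice, so p-values measure the spread between these libraries. The authors trimmed the reads, aligned them with STAR to the mouse genome (GRCm38.p6) and counted them per gene with featureCounts and GENCODE annotation. The deposited values are raw counts for 54188 genes in 8 libraries. Reads shared by near-identical genes or by overlapping genes on 1 strand could have been split or dropped in counting.

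Counts were tested with edgeR 4.0.16 (R 4.3.3), using filterByExpr, TMM scaling and a robust quasi-likelihood fit with 1 term for each of the 4 groups, so that all 8 libraries shared 1 estimate of the spread leaving 4 residual degrees of freedom. The Benjamini-Hochberg adjustment ran over all 17650 genes tested. DEGs had an adjusted p below 0.01 and a fold change above 8, and the 2-fold rule took an adjusted p of at most 0.05 and at least 2-fold. The interaction term was the BM difference minus the SP difference. CPM are TMM-normalized, RPKM used gene lengths of GENCODE M21 for 53947 genes, and ratios and figures used 0.1 CPM as pseudocount. The floor of a library is 3 counts. Totals of 33453580 to 42126974 counts put that floor at 0.0567 to 0.124 CPM, which covers counting error only.

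The genes named were, in each direction, the 10 DEGs of at least 50 CPM with the largest changes, the 5 with the highest RPKM, and in each of 29 function lists the 2 members with the largest 2-fold change each way and the most abundant member, with Ly6g, Csf1r, Fn1, Itgam, Xist and Ddx3y. Other list members, Ly6c2 and the genes of the closing section were chosen after their values were seen. A few genes that the rule or the lists hold are not reported here. The comparison, the 29 function lists and the 13 marker lists were chosen with earlier results of these data known. Promoters and motifs came from RefSeq. Alternatives were DESeq2's size factors, upper-quartile scaling, DESeq2 1.42.0, no filter, a fit of the 4 BM libraries, an exact test on quantile-normalized TPM, floors of 10 and 200 CPM, and leaving out each library.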

Additional observations from a re-analysis of the deposited data

Results flagged for a closer look

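Of the 28 leading genes, 8 had a difference between Gr-1hi and Gr-1lo cells that was not the same in BM and SP by the interaction term (edgeR quasi-likelihood test, Benjamini-Hochberg adjustment over all genes), and the limits of the SP libraries given above apply to each. Gabbr1 differed by 8.38 in BM and 5.37 in SP on the log2 scale, an interaction of 3.001 (adjusted p = 0.00845). Ngp had 4.74 in BM and 2.42 in SP, an interaction of 2.32 (adjusted p = 0.00620). Camp had 3.43 and 1.602, an interaction of 1.83 (adjusted p = 0.0191). The calprotectin genes S100a9, with 4.96 and 3.19, and S100a8, with 4.56 and 2.91, had interactions of 1.77 (adjusted p = 0.00321) and 1.65 (adjusted p = 0.00440). On the Gr-1lo side, Ass1 had -7.30 in BM and -3.52 in SP, an interaction of -3.79 (adjusted p = 0.00248). Pros1 had -6.79 and -4.62, an interaction of -2.17 (adjusted p = 0.0204), and mt-Nd1 -3.18 and -1.81, an interaction of -1.37 (adjusted p = 0.00659). In all 8 genes the difference in BM was the larger one. The 28 genes were picked by their values in BM, which the interaction term uses again. That shared direction is therefore no separate result.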

How the results depend on the processing

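No paired analysis was possible because the labels do not tie libraries to mice, so all libraries were fitted as independent. Leaving out 1 library at a time gave 1017 to 1261 DEGs higher in Gr-1hi and 1452 to 1770 higher in Gr-1lo cells, 4025 to 4659 and 5173 to 5893 genes at the 2-fold rule, 314 to 347 and 185 to 246 DEGs of at least 50 CPM, and 915 to 2488 genes with an interaction. It was lowest, at 915, when library 8 was dropped, and dropping library 12 gave 926, library 7 gave 973, and library 9 gave 1032. The exact test on quantile-normalized TPM gave 693 and 686 DEGs, 2744 and 2928 genes at the 2-fold rule, and 50.3% of DEGs higher in Gr-1hi cells. With a floor of 10 CPM the DEGs numbered 499 and 748, and with 200 CPM 191 and 48. With no filter the median log2 fold change of complement genes was -0.28 and that of envelope genes -0.0841. Leaving out 1 library, these medians ran from -0.0347 to 0.33 and from -0.0723 to 0.11, and that of clotting and matrix genes from -0.26 to 0.16. The filter on low counts was rerun in each of these fits, so the members behind a median can differ. Monocyte and dendritic cell factors higher in Gr-1hi cells numbered 2 with RLE scaling, upper-quartile scaling, DESeq2, the fit of 4 libraries, and without library 5 or 6. Suppression genes higher in Gr-1lo cells numbered 1 with RLE scaling, DESeq2, and without library 10. Without library 10, MHC class II genes higher in Gr-1hi cells numbered 2 and cell death genes higher in Gr-1lo cells 1. The log2 fold change of Xist, -1.46, was 0 on quantile-normalized TPM and ran from -4.51 without library 9 to 0.0221 without library 11. Of 137 named genes tested, 27 changed their call in any of 14 settings, 14 of them on quantile-normalized TPM. The causes were not tested. At 2 libraries per group, genes with a wide spread between replicates limit the calls.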

Other observations

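Several gene families outside the lists above parted the groups. They were picked with their values known and carry no test as families, and their counts use the 2-fold rule, by which 24.2% of all genes were higher in Gr-1hi and 33.1% higher in Gr-1lo cells. Of 82 cytosolic ribosomal protein genes, 75 were higher in Gr-1lo and 1 in Gr-1hi cells, with a median log2 fold change of -2.05, and their summed level was 7531 and 8481 CPM in Gr-1hi against 29778 and 31871 CPM in Gr-1lo libraries. Many of these genes have processed pseudogenes that can share their reads. All 13 mitochondrially encoded genes were higher in Gr-1lo cells (median -2.17), as were 13 of 20 cytosolic aminoacyl-tRNA synthetases (-1.74), all 7 chaperonin subunits (-1.92), and all 5 protein disulfide isomerases (-3.01). Of 10 enzymes of serine, glycine, and folate metabolism, 9 were higher in Gr-1lo cells, 8 by more than 8-fold (median -4.89). Of all genes tested, 10.1% were higher in Gr-1lo cells at 8-fold. Psat1, which makes a precursor of serine, stood at 1.23 and 2.02 CPM in Gr-1hi and 69.2 and 84.4 CPM in Gr-1lo libraries.

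Among surface receptor families, 10 of 12 Ms4a genes were higher in Gr-1lo cells (median -4.73), with Ms4a6c at 5.83 and 15.0 CPM against 679 and 681 CPM. In contrast, 10 of 12 Cd300 genes (median 3.11) and all 3 Pilr genes (3.85), which encode paired activating and inhibitory receptors, were higher in Gr-1hi cells. Of 12 genes of the Ifi200 family of DNA sensors, 10 were higher in Gr-1lo cells (-3.12), so these interferon-inducible genes lay on the other side from Rsad2. Of 6 interleukin 1 family ligands, 5 were higher in Gr-1hi cells (5.66). Among these, Il1a (0.187 and 0.124 CPM) and Il1f8 (0.411 and 0.372 CPM) were low even in Gr-1hi cells, so their folds are uncertain. Single genes also stood apart: Hdc, which makes histamine, had 1263 and 1440 CPM in Gr-1hi against 20.5 and 21.8 CPM in Gr-1lo cells, and Msr1, a scavenger receptor, had 0.449 and 1.53 CPM against 98.8 and 99.3 CPM.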
